A study of Mus musculus with 48 samples.

Results

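The mRNAs of 10 subunits of the CCR4-NOT complex (Cnot1, Cnot2, Cnot3, Cnot4, Cnot6, Cnot6l, Cnot7, Cnot8, Cnot10 and Cnot11) were followed through an RNA immunoprecipitation and sequencing experiment (RIP-seq) in mouse embryonic stem cells. They were found by gene symbol among the 20171 genes of the count table, and all 10 had enough counts to be tested in every comparison. RNA was sequenced from cell lysates (inputs) and from what magnetic beads carrying an HA antibody took out of those lysates (immunoprecipitates, IP). All cells were 129S6/SvEvTac embryonic stem cells of the yGlob line with a GFP reporter named GFP_5xT71BS and a stably transfected FLAG-Cas9::T2A::Blasticidin construct, kept in medium with LIF. The untagged cells carried nothing further, the HA-Tnrc6a cells carried an HA-AVI tag on Tnrc6a, and 2 more lines had that tag together with Ago2-/- or with Upf1-/-. Each of the 8 combinations of genotype and fraction held 6 libraries, 48 in all.

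CCR4-NOT is the main deadenylase of animal cells: it shortens the poly(A) tails of mRNAs, which lowers their translation and leads to decapping and decay. Cnot1 is the scaffold, Cnot2 and Cnot3 form a module at its carboxy-terminal end, and Cnot10 and Cnot11 bind its amino-terminal end. The catalytic subunits come as pairs of paralogues, of which a complex holds one of each: Cnot7 or Cnot8 (the Caf1 type of exonuclease) and Cnot6 or Cnot6l (the Ccr4 type). Cnot4 is a ubiquitin ligase that associates with the complex. Tnrc6 (GW182) proteins bind Argonaute proteins and recruit CCR4-NOT to microRNA targets through protein contacts. What RIP-seq measures is different, namely how much of a subunit's own mRNA was recovered with HA-tagged Tnrc6a.

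Table columns are numbered 1 to 6 within a group, while the labels place 3 dishes of each group in Experiment 3 and 3 in Experiment 4. Columns 1 to 3 and 4 to 6 are called the first and the second library set here, and which set is which experiment was not given. Library totals of the sets did not overlap: inputs held 15383953 to 19595405 counts in the first set and 26458831 to 37179105 in the second, and IPs 11471544 to 18344233 and 25724085 to 73845953. Every test was formed within the sets and averaged over them. Nothing in the labels says how many clones stand behind a genotype, so p-values measure only the spread between these libraries. The mRNA of Tnrc6a stood at 8840 to 34200 CPM (counts scaled to library size) in HA-Tnrc6a IPs and at 56.6 to 105 in untagged IPs. Ago2 mRNA lay at 92.8 to 136 CPM in Ago2-/- inputs and at 205 to 323 in HA-Tnrc6a inputs. Upf1 mRNA lay at 122 to 142 CPM in the inputs labelled Upf1-/-, above the 74.4 to 99.6 of HA-Tnrc6a inputs. This level cannot decide whether the label holds, since neither the protein nor the alleles were examined here. These cells are called labelled Upf1 knockout throughout. All 9 pluripotency markers examined were abundant in the inputs, at 348 to 1890 CPM, while the mesoderm markers stayed at or below 1.49 CPM. Markers of other cell types were lower, with neural markers summing to 47.5 to 110 CPM, most of it Tubb3, fibroblast markers to 20.5 to 36.7 and endoderm markers to 4.52 to 42.

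Per kilobase of gene length, the inputs of HA-Tnrc6a cells held the subunits at widely differing levels (CPM per kilobase, mean ± SD, n = 6). Cnot11 was the most abundant at 33.3 ± 1.54, ahead of Cnot8 at 27.6 ± 3.98 and Cnot3 at 26.9 ± 1.83. Cnot2 at 22.7 ± 0.702 and the scaffold Cnot1 at 21.6 ± 1.09 followed, and then Cnot10 at 14.8 ± 0.892, Cnot6 at 14.5 ± 0.551 and Cnot7 at 13.4 ± 0.424. Cnot4 stood at 4.54 ± 0.132 and Cnot6l was the scarcest at 1.53 ± 0.176. In this order Cnot8 and Cnot3, Cnot2 and Cnot1, and Cnot10 and Cnot6 were neighbours whose ranges of mean ± SD overlapped. Of the Ccr4-type pair Cnot6 was the more abundant, 9.49 times Cnot6l per length (range 8.4 to 10.8), and of the Caf1-type pair Cnot7 was the less abundant, at 0.49 of Cnot8 (range 0.395 to 0.577). The order says nothing of the amount of protein. The lengths are those of the authors' table, 5821 bases for Cnot7 and 2636 for Cnot8. Not divided by length, Cnot7 stood at 78 ± 2.47 CPM and Cnot8 at 72.7 ± 10.5 CPM in these inputs. The order of this pair therefore rests on the lengths.

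Which subunit mRNAs were recovered with tagged Tnrc6a beyond what the beads took from untagged lysate was asked by setting the IP over input ratio of HA-Tnrc6a cells against that of untagged cells. The mRNAs of the Ccr4-type deadenylases Cnot6 and Cnot6l stood far above those of the other subunits, at 11.7-fold and 14-fold. Cnot4 was recovered 1.9-fold, and Cnot7, Cnot1, Cnot11 and Cnot8 1.14-fold to 1.37-fold. Cnot3 and Cnot10 were recovered less than from untagged lysate. In all, 7 of the 10 rose, 2 fell and Cnot2 did not pass the test (edgeR quasi-likelihood test, adjusted p under 0.05 over all genes). Over all 19993 genes tested 62% were called, 29.8% higher and 32.2% lower, so calls in either direction were common. The median log2 fold change was 0.30 over the 10 subunits and -0.10 over all genes.

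**Figure D1:**
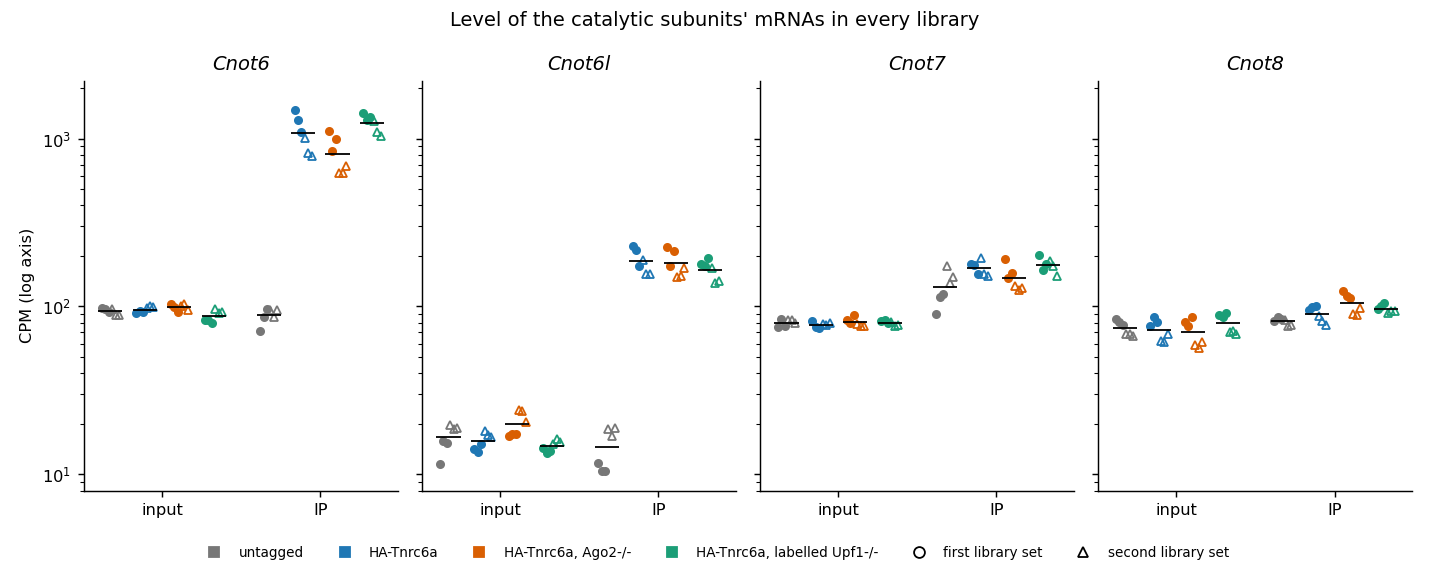
CPM on a log axis of the 4 catalytic subunits' mRNAs in each of the 48 libraries, by fraction and genotype (colour) and library set (symbol), with bars at the group means of 6 libraries. Cnot6 and Cnot6l stand at 785 to 1470 and at 155 to 228 CPM in HA-Tnrc6a IPs and at 71.8 to 96.2 and 10.4 to 19 in untagged IPs, while the IP values of Cnot7 and Cnot8 overlap between those genotypes.

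Cnot6 (ENSMUSG00000020362, chromosome 11, 49671497 to 49713401 in the RefSeq annotation of GRCm38.p6) reached 1470, 1290 and 1100 CPM in the HA-Tnrc6a IPs of the first library set and 1010, 819 and 785 CPM in those of the second. In untagged IPs it lay at 71.8, 86.9 and 96.2 CPM and at 95.2, 87 and 95 CPM, close to the 88.5 to 98.1 CPM of untagged inputs and the 91 to 100 CPM of HA-Tnrc6a inputs. Every tagged IP was above every other library of these 4 groups. The log2 fold change of recovery was 3.55 ± 0.10 (SE, adjusted p = 1.51e-25), which is the 98.7th percentile of all genes. It was larger in the first set (3.96 ± 0.14) than in the second (3.15 ± 0.13), and this was the one difference between sets among the 10 subunits that passed the test in this comparison (-0.80 ± 0.19, adjusted p = 0.0465, against 0.365% of all genes). The recovery of Tnrc6a mRNA itself moved the same way, at 8.67 in the first set and 6.87 in the second on the log2 scale. Cnot6l was at 4.23 and 3.38. Tob2 (4.75 and 4.7) and Btg2 (4.1 and 4.17), strongly recovered mRNAs of the wider pathway, were alike in both sets. Cnot4 was at 0.81 and 1.04. The part of Tnrc6a recovery in the difference of Cnot6 was not tested.

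Cnot6l (ENSMUSG00000034724, chromosome 5, 96070333 to 96164198), the scarcest subunit in the lysate, gave 228, 217 and 175 CPM in the first set of HA-Tnrc6a IPs and 190, 155 and 157 CPM in the second. Its untagged IPs held 11.7, 10.4 and 10.5 CPM and 18.5, 16.8 and 19 CPM, and the HA-Tnrc6a inputs 13.6 to 18.2 CPM. No tagged IP came near the range of the other groups. Recovery was higher by 3.81 ± 0.11 on the log2 scale (adjusted p = 2.91e-25, the 99.1st percentile of all genes), with 4.23 ± 0.17 in the first set and 3.38 ± 0.14 in the second (difference -0.85 ± 0.22, adjusted p = 0.0714). Although the inputs held the pair at very different levels, the ratio of Cnot6 to Cnot6l was alike before and after the beads, 9.49 in HA-Tnrc6a inputs and 8.87 in HA-Tnrc6a IPs. The log2 ratio in the IP less that in the input averaged -0.096 ± 0.122 (SD, n = 6) with the tag and 0.148 ± 0.375 without it (difference -0.244, exact permutation p = 0.195, adjusted p = 0.334 over 12 such tests).

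The Caf1-type deadenylases were recovered more weakly. Cnot7 (ENSMUSG00000031601, chromosome 8, 40492538 to 40515847) lay at 152 to 194 CPM in HA-Tnrc6a IPs, median 167, and at 90.2 to 173 CPM in untagged IPs, median 127, so the groups overlapped. Its recovery was 0.45 ± 0.09 higher on the log2 scale (adjusted p = 7.88e-05), at 0.68 ± 0.13 in the first set and 0.23 ± 0.13 in the second. The second set alone gave 0.17 with an adjusted p of 0.222. Cnot7 was also the subunit that the beads took most from lysate without any tag. There its untagged IPs exceeded untagged inputs, at 75.2 to 84.2 CPM, by 0.67 ± 0.07 (adjusted p = 1.01e-07), the 92.9th percentile of all genes. Cnot8 (ENSMUSG00000020515, chromosome 11, 58092794 to 58118597) lay at 77.9 to 99.9 CPM in HA-Tnrc6a IPs and at 76.6 to 86.1 in untagged IPs. Its recovery differed by 0.19 ± 0.07 (adjusted p = 0.0134), a call that was lost in the second set alone (0.13, adjusted p = 0.202).

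Cnot4 (ENSMUSG00000038784, chromosome 6, 35022065 to 35133754), the associated ubiquitin ligase, came next after the Ccr4-type pair. HA-Tnrc6a IPs held 67.8 to 76.9 CPM, median 73.7, and untagged IPs 31.7 to 39.7 CPM, median 35.3. All 6 tagged IPs lay above all 6 untagged ones and above every input of either genotype. Recovery was 0.93 ± 0.07 higher (adjusted p = 6.48e-13), with 0.81 ± 0.11 and 1.04 ± 0.10 in the first and the second set.

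Among the scaffold and the non-catalytic modules the directions split. Cnot1 (ENSMUSG00000036550, chromosome 8, 95718931 to 95808113) lay at 307 to 440 CPM in HA-Tnrc6a IPs and 203 to 385 in untagged IPs, overlapping ranges, and its recovery was higher by 0.35 ± 0.09 (adjusted p = 0.0013). Cnot11 (ENSMUSG00000003135, chromosome 1, 39535701 to 39546881) went from 83.5 to 97.1 CPM in untagged IPs to 101 to 122 CPM in tagged IPs, with no overlap, and rose by 0.25 ± 0.06 (adjusted p = 0.00105). For both genes the tagged IP was near the input level and the untagged IP was below it, by -0.38 ± 0.08 for Cnot1 and -0.34 ± 0.05 for Cnot11 on the log2 scale. Cnot2 (ENSMUSG00000020166, chromosome 10, 116485160 to 116581900) gave 0.16 ± 0.07 (adjusted p = 0.0593).

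The mRNAs that fell were those of Cnot3, the partner of Cnot2, and of Cnot10, the partner of Cnot11. Cnot3 (ENSMUSG00000035632, chromosome 7, 3645247 to 3661109) lay at 109 to 154 CPM in HA-Tnrc6a IPs and at 175 to 193 CPM in untagged IPs, with no overlap. Its recovery was lower by -0.43 ± 0.06 (adjusted p = 4.16e-07). Cnot10 (ENSMUSG00000056167, chromosome 9, 114585874 to 114640220) lay at 54.9 to 79.1 CPM in HA-Tnrc6a IPs and at 79.5 to 112 CPM in untagged IPs, and recovery was lower by -0.51 ± 0.07 (adjusted p = 1.04e-07). A CPM is a share of a library, so a fall is relative to the other RNAs recovered. When libraries were scaled by their totals instead, the median log2 fold change of all genes shifted by -0.16 and stood at -0.25. The small rises of Cnot1 (0.19, adjusted p = 0.11), Cnot11 (0.09, adjusted p = 0.268) and Cnot8 (0.03, adjusted p = 0.708) were then no longer called.

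**Figure D2:**
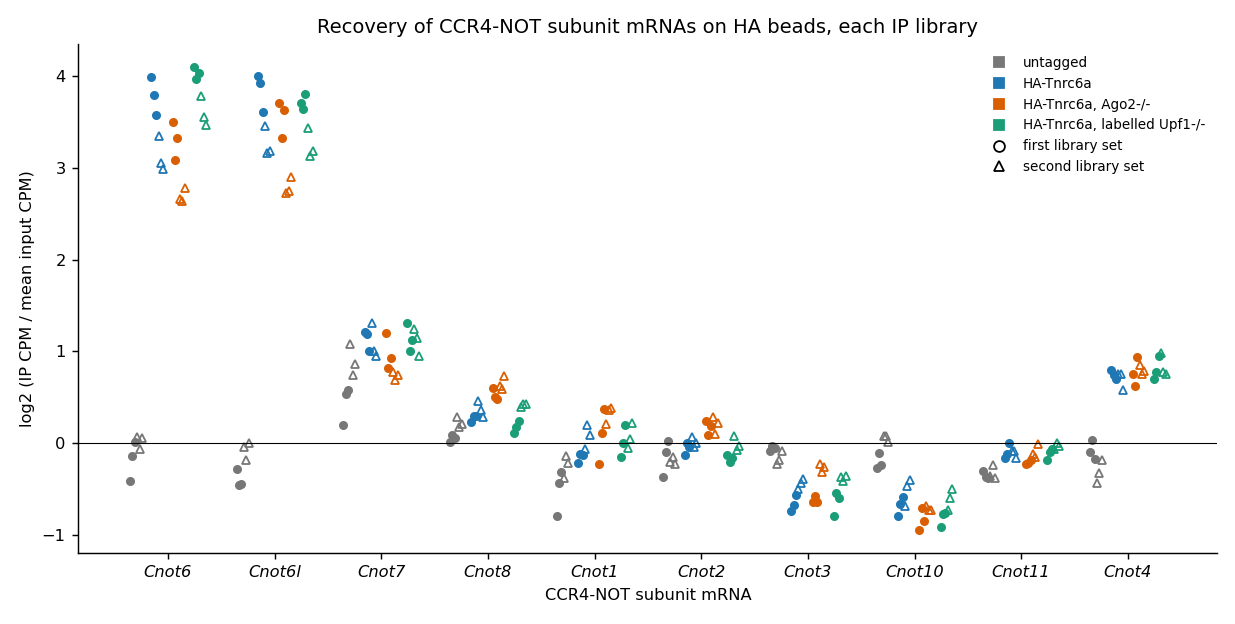
Log2 ratio of each IP library's CPM to the mean input CPM of the same genotype and library set, for the 10 subunit mRNAs, by genotype (colour) and library set (symbol). In HA-Tnrc6a cells Cnot6 and Cnot6l lie between 2.99 and 4, Cnot7 between 0.95 and 1.3, Cnot4 between 0.58 and 0.79, and Cnot3 and Cnot10 below 0.

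The strong recovery of Cnot6 and Cnot6l stood beside that of many recruiters of the complex. Of 48 other genes of the deadenylation pathway tested, 36 rose, 5 fell and 7 did not pass, with a median of 1.02 on the log2 scale against -0.10 over all genes. The recruiters and adaptors gave the most calls, with 24 of 25 higher and a median of 2.18. Tnrc6a, counted among these though it is the tagged protein's own mRNA, led (7.77 ± 0.18). Tob2 (4.73 ± 0.12, adjusted p = 7.88e-26) and Btg2 (4.13 ± 0.10, adjusted p = 1.74e-26) followed, a pair of related proteins that bind the Caf1-type deadenylases. The remaining recruiter, Nanos3, was at -0.77 (adjusted p = 0.223). Of 11 decapping and repression genes 6 rose and 2 fell, and of 2 poly(A) binding proteins 1 fell. Of 8 other deadenylases and related proteins 5 rose and 2 fell. Pan2, the catalytic subunit of another cytoplasmic deadenylase, was among the lowest (-0.56 ± 0.09, adjusted p = 1.03e-06). Toe1, a nuclear deadenylase, fell as well (-0.42 ± 0.09, adjusted p = 0.00016), as did Lsm14a of the decapping group (-0.47 ± 0.06, adjusted p = 6.69e-08). Cnot9, a further core subunit kept in this wider list and named after its values were seen, rose by 1.23 ± 0.06 (adjusted p = 4.03e-18), between Cnot4 and the Ccr4-type pair.

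The makeup of the subunit mRNAs also differed between IP and input without a tag. In untagged cells, where no HA protein is present, 8 of the 10 differed between IP and input, 2 higher and 6 lower. Of the 19299 genes tested 35.7% were called, 18% higher and 17.8% lower. Besides Cnot7, Cnot8 rose slightly (0.13 ± 0.05, adjusted p = 0.0279). Cnot1 fell most, followed by Cnot11, Cnot6l (-0.24 ± 0.08, adjusted p = 0.0292), Cnot4 (-0.20 ± 0.06, adjusted p = 0.0131), Cnot2 (-0.17 ± 0.06, adjusted p = 0.022) and Cnot3 (-0.12 ± 0.04, adjusted p = 0.0392). The first library set alone gave 3 calls, with Cnot4 at -0.08 (adjusted p = 0.7), and Cnot6l was called in neither set alone (-0.39, adjusted p = 0.131, and -0.05, adjusted p = 0.639). Of the wider pathway list 9 genes rose, 15 fell and 24 did not pass. Among the called genes Tob1 was highest at 0.65 ± 0.06 and Samd4b, a further recruiter, lowest at -0.55 ± 0.06. All these shifts were small beside the recovery of Cnot6 and Cnot6l with the tag. When libraries were scaled by their totals 20.9% of the called genes were higher, against 50.3% in the TMM fit, and Cnot8 turned to -0.04.

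Whether recovery of these mRNAs depends on Ago2, one of the Argonaute proteins, was asked by comparing Ago2-/- with HA-Tnrc6a cells, both tagged. The 2 Ccr4-type mRNAs and Cnot7 were recovered less in the knockout, at 0.723 to 0.839 of the level in HA-Tnrc6a cells, while Cnot8, Cnot1 and Cnot2 were recovered more, by 1.15-fold to 1.2-fold. The subunits therefore split, with 3 higher, 3 lower and 4 not called. Of 19995 genes 21.3% were called, 9.09% higher and 12.3% lower. The median over the 10 was 0.01, and -0.04 over all genes. Both knockout comparisons share the HA-Tnrc6a libraries.

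Cnot6 lay at 1110, 838 and 988 CPM in the first set of Ago2-/- IPs and at 627, 619 and 682 CPM in the second. Within each set the lowest HA-Tnrc6a IP, at 1100 and 785 CPM, exceeded all Ago2-/- IPs but the one at 1110. Inputs were alike, at 92.9 to 103 CPM against 91 to 100. Recovery was lower by -0.47 ± 0.09 (adjusted p = 0.000264), with -0.49 ± 0.13 and -0.45 ± 0.13 in the sets. It was still 8.53-fold above untagged cells (3.09 ± 0.08, adjusted p = 6.32e-28). For Cnot6l the IPs held 226, 173 and 213 CPM and 150, 152 and 170 CPM, overlapping those of HA-Tnrc6a cells, while the Ago2-/- inputs were higher, at 16.9 to 24 CPM against 13.6 to 18.2. Its recovery was lower by -0.38 ± 0.10 (adjusted p = 0.00482). Comparing IP with IP without the inputs gave -0.02 (adjusted p = 0.864), so the fall of Cnot6l is one of the ratio and not of its IP level. In Ago2-/- cells Cnot6l remained 10.8-fold above untagged cells (3.43 ± 0.10, adjusted p = 5.4e-27).

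The Caf1-type paralogues moved in opposite directions. Cnot7 lay at 125 to 192 CPM in Ago2-/- IPs, median 140, and at 152 to 194 in HA-Tnrc6a IPs, median 167, and its recovery was lower by -0.25 ± 0.08 (adjusted p = 0.0213). Cnot8 lay at 124, 115 and 113 CPM in the first set of Ago2-/- IPs, above all 3 HA-Tnrc6a IPs of that set at 95.4 to 99.9, and at 90.6, 88.5 and 97.4 CPM in the second, above the 77.9 to 87.6 there. Its recovery was higher by 0.27 ± 0.07 (adjusted p = 0.00324). The ratio of Cnot7 to Cnot8 inside a library does not depend on how libraries are scaled. Its log2 in the IP less that in the input of the same number averaged 0.271 ± 0.222 (SD, n = 6, range 0.06 to 0.61) in Ago2-/- cells and 0.788 ± 0.139 (range 0.59 to 1.02) in HA-Tnrc6a cells. The difference of -0.517 had an exact two-sided permutation p of 0.005 within library sets, the smallest the 400 labelings allow, and an adjusted p of 0.02 over 12 tests. It was -0.41 in the first set and -0.625 in the second. Untagged cells, with no HA protein, gave 0.529 ± 0.187 (range 0.3 to 0.8), between these 2 means. The difference of HA-Tnrc6a from untagged cells, 0.26, did not pass the same permutation test (adjusted p = 0.105). Ago2-/- cells were not tested against untagged cells for this ratio.

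**Figure D3:**
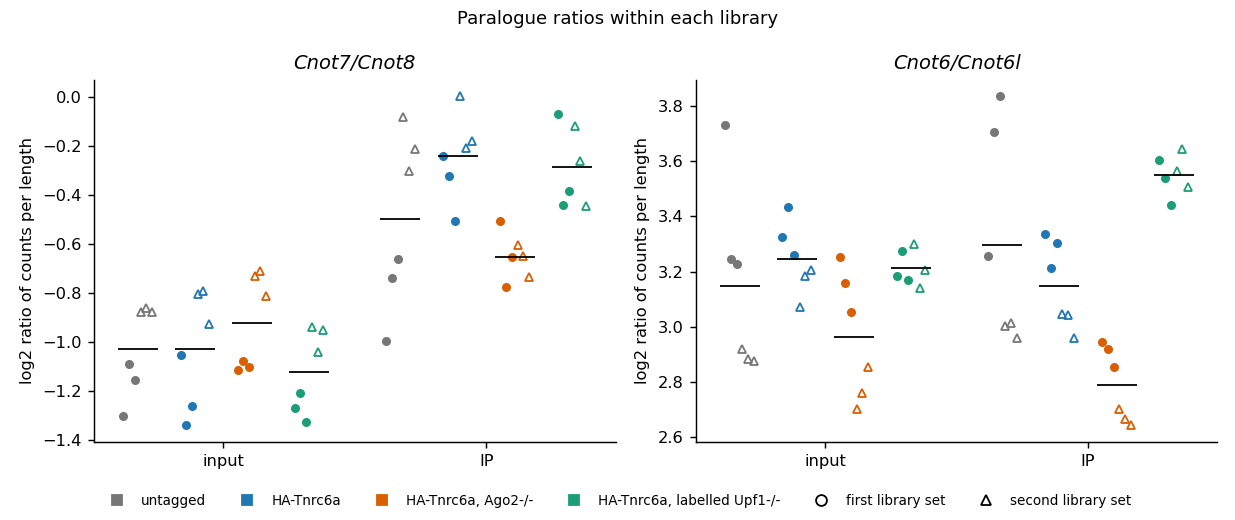
Log2 ratio of counts per length of Cnot7 to Cnot8 (left) and of Cnot6 to Cnot6l (right) in each library, by fraction, genotype (colour) and library set (symbol), with bars at the group means of 6 libraries. In IPs the mean log2 ratio of Cnot7 to Cnot8 is -0.65 in Ago2-/-, -0.24 in HA-Tnrc6a and -0.5 in untagged cells. That of Cnot6 to Cnot6l is 3.55 in cells labelled Upf1 knockout, 3.15 in HA-Tnrc6a cells and 3.3 in untagged cells.

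The scaffold Cnot1 (0.25 ± 0.09, adjusted p = 0.0369) and Cnot2 (0.21 ± 0.06, adjusted p = 0.0122) were recovered more in Ago2-/- cells. Cnot2 lay at 99.6 to 114 CPM in Ago2-/- IPs and at 86.5 to 95.8 CPM in HA-Tnrc6a IPs, which did not overlap. Cnot1 lay at 283 to 493 CPM against 307 to 440 CPM, and its call was lost when any of 13 of the 24 libraries was left out (HA-Tnrc6a input 2, 3, 4 or 5, HA-Tnrc6a IP 1 or 4, HA-Tnrc6a_Ago2KO input 1, 2, 5 or 6, HA-Tnrc6a_Ago2KO IP 3, 5 or 6). The lowest value, 0.17 with an adjusted p of 0.109, came without HA-Tnrc6a_Ago2KO IP 3. Cnot10 (-0.18 ± 0.07, adjusted p = 0.0549), Cnot3 (0.10 ± 0.06), Cnot4 (0.07 ± 0.08) and Cnot11 (-0.05 ± 0.06) did not pass. The first library set called 1 of the 10, Cnot6, by itself, although its values had the same signs as the average for all 6 called subunits. The second set alone did not call Cnot1 (adjusted p = 0.0506) or Cnot2 (adjusted p = 0.0619). Leaving out HA-Tnrc6a input 2 or HA-Tnrc6a_Ago2KO IP 5 ended the call of Cnot7 (adjusted p of at most 0.0517, value -0.23).

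In the wider pathway list, 6 genes were recovered more in Ago2-/- cells, 8 less and 34 did not pass. Among those recovered more were Tob1 (0.51 ± 0.10), Btg1 (0.47 ± 0.10) and Pum2 (0.44 ± 0.07), all of them recruiters of the complex. The lowest were Nanos1, also a recruiter (-1.35 ± 0.13, adjusted p = 1.25e-09), the decapping enzyme Dcp2 (-0.86 ± 0.09, adjusted p = 5.12e-09) and Tnks1bp1, a CCR4-NOT associated protein (-0.61 ± 0.13, adjusted p = 0.000932). Cnot9 fell by 0.33 on the log2 scale.

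In the cells labelled Upf1 knockout, whose Upf1 mRNA was not lower, Cnot6 was the one subunit whose recovery changed against HA-Tnrc6a cells. It was recovered 1.32-fold more (0.41 ± 0.08, adjusted p = 0.00267), while of 19966 genes 4.49% were called, 2.92% higher and 1.57% lower. Its IPs held 1410, 1290 and 1340 CPM in the first set and 1280, 1100 and 1040 CPM in the second. The second set lay above all HA-Tnrc6a IPs of that set, at 785 to 1010 CPM, and the first set overlapped the HA-Tnrc6a range of 1100 to 1470. Its inputs were lower, at 79.9 to 96 CPM against 91 to 100. In the first set alone the value was 0.23 with an adjusted p of 0.522. Cnot6l, at 138 to 193 CPM in these IPs, gave -0.02 ± 0.09 (adjusted p = 0.935). The ratio of Cnot6 to Cnot6l therefore changed: its log2 in the IP less that in the input averaged 0.337 ± 0.101 (SD, n = 6, range 0.26 to 0.5) in labelled Upf1 knockout cells and -0.096 ± 0.122 (range -0.24 to 0.04) in HA-Tnrc6a cells. The difference of 0.433 had an exact permutation p of 0.005 (adjusted p = 0.02), with 0.375 and 0.492 in the first and the second set.

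The other 8 subunits ranged from -0.06 ± 0.08 for Cnot10 to 0.16 ± 0.07 for Cnot4 (adjusted p = 0.219). Of the pathway list 6 genes were recovered more, 2 less and 40 did not pass. Angel1, a Ccr4-related protein, rose by 0.44 ± 0.09 (adjusted p = 0.0016), and of the decapping genes Dcp1b (0.37 ± 0.10) and Lsm14b (0.34 ± 0.08) rose while Dcp1a (-0.36 ± 0.07) and Dcp2 (-0.36 ± 0.09) fell. Among called genes 65.1% were higher in the TMM fit, 52.8% with RLE and 22.4% when libraries were scaled by their totals.

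**Figure D4:**
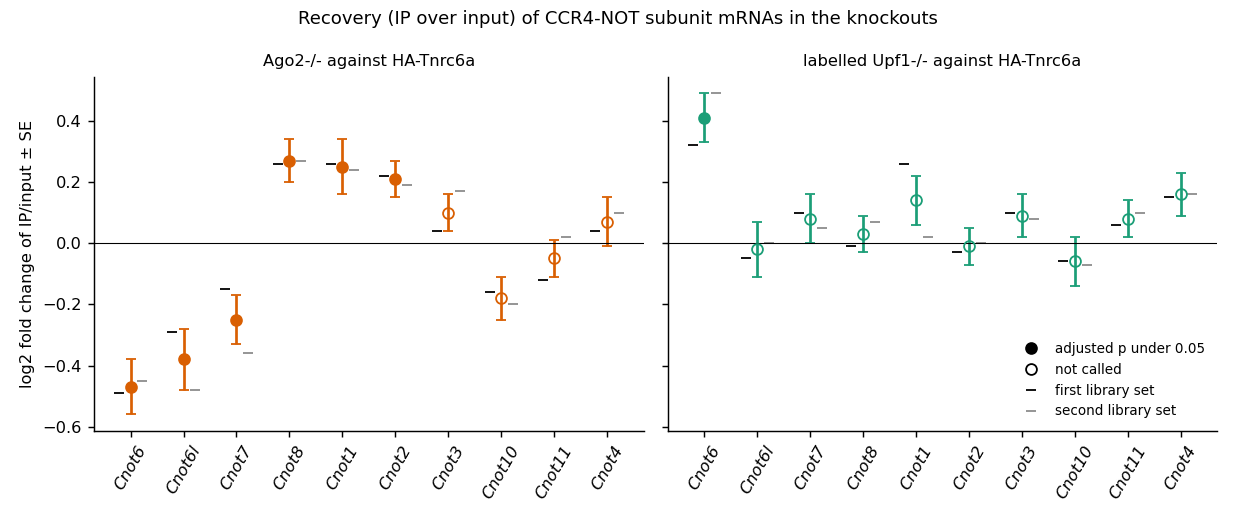
Log2 fold change ± SE of recovery (IP over input) of the 10 subunit mRNAs against HA-Tnrc6a cells, in Ago2-/- cells (left) and in cells labelled Upf1 knockout (right), with filled points at an adjusted p under 0.05 and dashes for the first (black) and second (grey) library set. Cnot6 is at -0.47 on the left and at 0.41 on the right.

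Each knockout was also set against untagged cells. These comparisons share the untagged libraries with that of HA-Tnrc6a cells. In Ago2-/- cells all 10 subunits were called, 8 higher and 2 lower, and of 19982 genes 64.7%, with 31.5% higher and 33.2% lower. When libraries were scaled by their totals, Cnot7 (0.05, adjusted p = 0.627) and Cnot11 (0.05, adjusted p = 0.508) were not called in Ago2-/- cells, nor was Cnot11 in the first set alone (adjusted p = 0.217) or Cnot3 in the second (-0.13, adjusted p = 0.0558). In labelled Upf1 knockout cells 7 were higher, 2 lower and Cnot2 was not called, and of 19910 genes 63.6% were called, 31.8% higher and 31.8% lower. For the latter, 36.4% of called genes were higher when libraries were scaled by their totals, against 50% with TMM, and the median of all genes moved by -0.26. Cnot1 (0.24, adjusted p = 0.0711), Cnot11 (0.08, adjusted p = 0.304) and Cnot8 (-0.03, adjusted p = 0.707) were then not called. Cnot8 was called in neither set alone (adjusted p = 0.422 and 0.0793), Cnot11 not in the first (adjusted p = 0.099) and Cnot7 not in the second (0.17, adjusted p = 0.161). Cnot4 rose by 1.00 ± 0.09 and by 1.09 ± 0.08, Cnot3 fell by 0.31 and by 0.32, and Cnot10 fell by 0.68 and by 0.56, on the log2 scale in Ago2-/- and in labelled Upf1 knockout cells. Cnot6 and Cnot6l in labelled Upf1 knockout cells were at 3.97 ± 0.08 and 3.79 ± 0.09. Cnot7 gave 0.20 ± 0.08 in Ago2-/- cells (adjusted p = 0.0335) and was -0.2 in the second library set alone. It was not called with RLE (adjusted p = 0.0833) or DESeq2 (adjusted p = 0.105). Differences between the library sets passed the test for 4 subunits in Ago2-/- cells, against 6.15% of genes. They were Cnot6 (3.48 in the first set, 2.7 in the second), Cnot6l (3.96 and 2.9), Cnot7 (0.55 and -0.14) and Cnot3 (-0.56 and -0.07). In labelled Upf1 knockout cells they passed for Cnot6 (4.31 and 3.63) and Cnot6l (4.21 and 3.37), against 1.68% of genes. Tnrc6a itself was at 9.09 and 6.68 in Ago2-/- cells and at 8.45 and 6.86 in labelled Upf1 knockout cells. Tob2 was at 5.04 and 4.54 in Ago2-/- cells and at 4.49 and 4.62 in labelled Upf1 knockout cells. For Btg1 these values were 4.23 and 4.39, and 4.11 and 4.17. Of the pathway list 37 genes rose and 4 fell in Ago2-/- cells, and 37 rose and 6 fell in labelled Upf1 knockout cells.

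In the lysates of Ago2-/- cells 3 subunits rose and 1 fell against HA-Tnrc6a inputs, while of 19641 genes 30.9% were called, 15.7% higher and 15.2% lower. Cnot6l rose 1.25-fold (0.33 ± 0.06, adjusted p = 1.63e-05). In the first set it lay at 16.9, 17.4 and 17.4 CPM against 14.1, 13.6 and 15.1, and in the second at 24, 23.8 and 20.4 CPM against 18.2, 17.2 and 16.7, so that within each set no libraries overlapped. Cnot11 rose by 0.20 ± 0.03 (adjusted p = 2.63e-07), with 118 to 147 CPM against 111 to 124. Cnot10 rose by 0.10 ± 0.03 (adjusted p = 0.00707) and Cnot1 fell by 0.07 on the log2 scale (SE 0.03, adjusted p = 0.0374). The call of Cnot1 was lost with RLE scaling (adjusted p = 0.0529), with DESeq2 (adjusted p = 0.0548) and in each library set alone (-0.10, adjusted p = 0.0905, and -0.02, adjusted p = 0.56). It was also lost when any of 8 of the 12 libraries was left out (input 2, 3, 4 or 5 of HA-Tnrc6a, or 1, 2, 5 or 6 of Ago2-/- cells), and that of both Cnot1 (adjusted p = 0.588) and Cnot10 (adjusted p = 0.132) with all 48 libraries in 1 fit. The ratio of Cnot6 to Cnot6l fell from a mean of 9.49 to 7.81 (difference of log2 ratios -0.281, exact permutation p = 0.005, adjusted p = 0.02). Of the pathway list 12 genes rose, 10 fell and 26 did not pass, with Tnrc6a (0.51 ± 0.03) and Tnrc6b (0.34 ± 0.04) highest and Zfp36, a recruiter to AU-rich mRNAs, lowest (-0.53 ± 0.06). Neural markers summed to 102 to 110 CPM in these inputs and to 76.8 to 85.1 in HA-Tnrc6a inputs, and endoderm markers to 4.52 to 5.12 and 13.9 to 20.6. Their part in these differences was not tested.

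The inputs labelled Upf1 knockout showed more calls, 2 subunits higher and 6 lower, while of 19444 genes 58.6% were called, 29.5% higher and 29% lower. The ubiquitin ligase Cnot4 fell most, from 42.9 to 46.2 CPM in HA-Tnrc6a inputs to 30.1 to 38.2 CPM, with no overlap (-0.38 ± 0.04, adjusted p = 3.43e-12). Its first set gave -0.49 ± 0.06 and its second -0.27 ± 0.05 (difference 0.22 ± 0.08, adjusted p = 0.0539). The falls of Cnot3 (-0.15 ± 0.03), Cnot11 (-0.14 ± 0.03), Cnot1 (-0.12 ± 0.02), Cnot6 (-0.12 ± 0.03) and Cnot2 (-0.07 ± 0.03) were between 0.898-fold and 0.951-fold. Cnot8 rose by 0.13 ± 0.03 (adjusted p = 0.000653) and Cnot10 by 0.09 ± 0.03 (adjusted p = 0.00567). Cnot6l (-0.09 ± 0.06) and Cnot7 (0.04 ± 0.03) did not pass. With all 48 libraries in 1 fit 4 of the 8 calls were left, and leaving out input 1 or 3 of HA-Tnrc6a or input 1 or 6 of labelled Upf1 knockout cells ended that of Cnot2 (adjusted p of at most 0.117). Of the pathway list 11 genes rose, 16 fell and 21 did not pass, with the decapping genes Dcp2 (0.47 ± 0.03) and Dcp1a (0.36 ± 0.04) highest and Cpeb1, a cytoplasmic polyadenylation element binding protein, lowest (-1.04 ± 0.09). Neural markers summed to 47.5 to 64.4 CPM in these inputs, below the 76.8 to 85.1 of HA-Tnrc6a inputs, and endoderm markers to 7.33 to 42, around the 13.9 to 20.6 there. Their part in these differences was not tested.

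**Figure D5:**
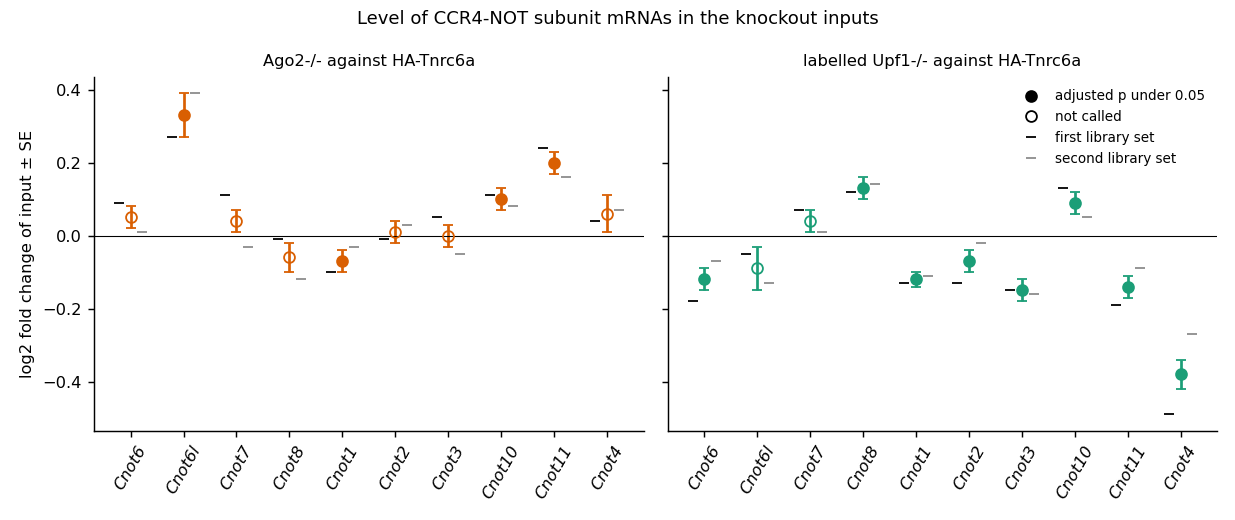
Log2 fold change ± SE of the input level of the 10 subunit mRNAs against HA-Tnrc6a inputs, in Ago2-/- cells (left) and in cells labelled Upf1 knockout (right), with filled points at an adjusted p under 0.05 and dashes for the first (black) and second (grey) library set. Cnot6l is highest on the left at 0.33 and Cnot4 lowest on the right at -0.38.

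HA-Tnrc6a inputs differed from untagged inputs in Cnot4 alone among the 10 (0.12 ± 0.04, adjusted p = 0.0352), while of 19407 genes 15.4% were called, 7.74% higher and 7.67% lower, and neither library set called it by itself (adjusted p = 0.267 and 0.172). The second set alone called Cnot1 (-0.13, adjusted p = 0.000718) and Cnot6 (0.12, adjusted p = 0.0144). Averaged over the sets, the other 9 lay between -0.07 for Cnot6l and 0.04 for Cnot6 and Cnot11 on the log2 scale. Of the pathway list 1 gene rose, 4 fell and 43 did not pass, with Zfp36 lowest (-0.56 ± 0.06).

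Over the 16 combinations of group and library set, the mean log2 CPM of Cnot6 and Cnot6l followed each other most closely among the subunits (Pearson r = 0.987), ahead of Cnot4 and Cnot6l (r = 0.917) and of Cnot3 and Cnot10 (r = 0.898). Cnot6 ran opposite to Cnot10 (r = -0.934). These points share libraries, and most of their spread is that between tagged IPs and the rest. The scaffold Cnot1 followed none of its partners closely, with r from -0.227 for Cnot8 to 0.455 for Cnot2. Among 10986 genes with a mean log2 CPM of at least 3, the profiles most like that of Cnot1 were 4930513N10Rik (r = 0.92), Rfwd3 (r = 0.894) and Gm38058 (r = 0.889). In RefSeq, 4930513N10Rik overlaps Cnot1, and whether strand was used when reads were assigned to genes is not given in the sources used here, so reads of the pair may not be told apart. The same limit holds for the other subunits, of which Cnot11 alone overlaps no annotated gene. Protein-coding overlaps are Vps37a for Cnot7, Leng1 for Cnot3, Setd6 for Cnot1, Gm52799 for Cnot6l and Gm12248 for Cnot8.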

How the data were processed

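Mouse embryonic stem cell lysates and HA immunoprecipitates were sequenced as stranded total RNA, per the labels' protocols. The authors deposited 1 table with raw counts per gene and library, 48 columns with no normalization, beside 48 columns headed rpkm that were not used and the gene length in bases that the authors' table gives. The submitters' processing notes name STAR 2.7.3a, bcl2fastq 2.20 and GRCm38/mm10. The counting tool and its strand setting are not given in the sources used here. Symbols came from the table and from reference tables, and 19 rows with an Ensembl identifier but no symbol stayed in the fits and are not named. Gene positions are those of the RefSeq annotation of GRCm38.p6, a reference of the same build.

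Columns were matched to groups by name, and numbers 1 to 3 and 4 to 6 were taken as 2 library sets. The counts were fitted in edgeR 4.0.16, with limma 3.58.1 under R 4.3.3: filterByExpr with a minimum count of 10, TMM scaling, 1 coefficient per group and set, the robust quasi-likelihood fit of only the groups compared, contrasts averaged over the sets, two-sided tests and Benjamini-Hochberg adjustment over all genes tested, with a threshold of 0.05. The SE is the size of the log2 fold change over the square root of F. CPM values were scaled by TMM over all 48 libraries. Recovery is the log2 IP over input ratio of one genotype less that of another. Paralogue ratios used counts per length with 0.5 added, and were compared by an exact permutation test within sets, adjusted over 12 tests. The code of the fits was run on simulated counts with known changes. Apart from those changes all simulated libraries shared a profile and a dispersion, so this checks the code and not its match to these data.

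No 2 libraries of a group held identical values, and the counts of all 120 pairs differed by more than sampling noise (chi-square per degree of freedom of at least 1.93). Counts per library and subunit ranged from 119 for Cnot6l to 45088 for Cnot6. The labels name no molecular identifiers, so counts may not be independent molecules. The 10 members, the pathway list, the markers and the tests were chosen with earlier results of these data known. The rule for names took all 10 members, up to 3 pathway genes per direction with the largest called change and the 3 genes most like Cnot1. Alternatives were RLE and library-total scaling, no count filter, DESeq2 1.42.0, a replicate block, all libraries in 1 fit, each set alone, IP without inputs, a pseudocount of 2 and each library left out in turn. Protein sequences and 3' UTR sites were not analysed here. Cdx2, Elf5 and Col3a1, which are also on the marker lists, were not found by symbol in the count table. Trophoblast markers, Cdx2 and Elf5, could therefore not be examined.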

Additional observations from a re-analysis of the deposited data

Results flagged for a closer look

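Differences between the library sets (second less first, on the log2 scale) passed the test (edgeR quasi-likelihood test, adjusted p under 0.05) for 7 of the 90 combinations of subunit and comparison. All 7 were recoveries against untagged cells, which share the untagged libraries. Over all genes such differences passed for 0.365% in HA-Tnrc6a cells, 6.15% in Ago2-/- cells and 1.68% in labelled Upf1 knockout cells. For Cnot6 the difference was -0.80 in HA-Tnrc6a cells (adjusted p = 0.0465), -0.78 in Ago2-/- cells (adjusted p = 0.00213) and -0.68 in labelled Upf1 knockout cells (adjusted p = 0.0125). For Cnot6l it was -1.06 in Ago2-/- cells (adjusted p = 0.000659) and -0.84 in labelled Upf1 knockout cells (adjusted p = 0.0114). In Ago2-/- cells it was -0.68 for Cnot7 (adjusted p = 0.0108) and 0.49 for Cnot3 (adjusted p = 0.00878). By Dixon's criterion for 6 values no library stood apart in 80 groups of CPM values or 40 of recovery values, where chance would pick out about 1 in 20. Each group holds both library sets, whose values often differ, so the criterion could miss a library that stands apart within its set.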

How the results depend on the processing

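Of 770 values of single subunits over the alternatives other than leaving out libraries, 698 kept their side of the threshold, 52 were no longer called, 15 became called and 5 reversed. A further change of sign, in values called neither before nor after, was seen in 31 of those that kept their side. For recovery with HA-Tnrc6a over untagged cells, the rises of Cnot6, Cnot6l and Cnot4 kept their calls under every alternative run. So did the falls of Cnot3 and Cnot10. The reversed values were Cnot11 at 0.18 for Ago2-/- and Cnot4 at -0.26 for labelled Upf1 knockout recovery, both when IP was compared with IP without inputs. They were also Cnot7 at -0.2 for Ago2-/- against untagged cells in the second library set alone, and, with libraries scaled by their totals, Cnot8 at -0.04 for untagged IP against input and at -0.03 for labelled Upf1 knockout against untagged cells.

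Among counts of subunits called, the first library set alone gave 1 in place of 6 for Ago2-/- recovery, 0 in place of 1 for labelled Upf1 knockout recovery (edgeR, with 0 at an unadjusted p under 0.05), 2 in place of 4 for Ago2-/- inputs, 0 in place of 1 for HA-Tnrc6a inputs (edgeR, with 1 at an unadjusted p under 0.05) and 3 in place of 8 for untagged IP. The second set alone gave 5 in place of 8 for labelled Upf1 knockout inputs and 2 in place of 1 for HA-Tnrc6a inputs. All 48 libraries in 1 fit gave 2, 4 and 0 for the inputs of Ago2-/-, labelled Upf1 knockout and HA-Tnrc6a cells (edgeR, with 1 at an unadjusted p under 0.05 for the last; DESeq2 called 1 there in its own fit). IP without inputs gave 2 in place of 1 for labelled Upf1 knockout recovery. The ratio of Cnot7 to Cnot8 in IP less input, HA-Tnrc6a against untagged, was 0.479 in the first set and 0.04 in the second, against 0.26 over both. A set alone has 3 libraries a group. Calls over all genes were also fewer in the first set alone, 1623 in place of 4267 for Ago2-/- recovery. For labelled Upf1 knockout recovery they were 162 in place of 896. The cause of the other changes was not tested.

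Counts over all genes moved by more than 1.5 times for Ago2-/- recovery (4267, with 1623 in the first set and 7482 without inputs), labelled Upf1 knockout recovery (896, with 162 and 384 in the sets, 8805 without inputs and 591, 594, 596 and 592 without HA-Tnrc6a input 2, 3, 5 and 6), Ago2-/- inputs (6065, with 3902 in 1 fit of all libraries and 3382 in the first set), HA-Tnrc6a inputs (2990, with 1937 and 652) and untagged IP (6892, with 1972 in the first set).

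Libraries with the same number did not all deviate together: r ranged from -0.185 to 0.522 over 168 pairs (mean 0.0395, against -0.0195 for different numbers), and for input and IP of one genotype its mean was 0.0641 against -0.031. The gene fits did not take the numbers as pairs, while the paralogue ratio in IP less input subtracted the input of the same number. With the replicate block the 3 called paralogue ratios, -0.517, -0.281 and 0.433, had adjusted p-values of 0.0936, since 6 pairs cannot give a sign-flip p below 0.0312. In the gene fits the block added calls of Cnot2 (recovery with HA-Tnrc6a, adjusted p = 0.0437, and in labelled Upf1 knockout against untagged cells, adjusted p = 0.037) and of Cnot10 (Ago2-/- recovery, adjusted p = 0.0472).

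Leaving out each library in turn kept 925 of 960 subunit values on their side of the threshold, with 27 no longer called and 8 newly called. No called value changed sign, while some uncalled ones near 0 did, such as Cnot7 in labelled Upf1 knockout recovery (-0.01 to 0.1). Counts called ranged from 9 to 10 for recovery with HA-Tnrc6a, 4 to 7 for Ago2-/- recovery, 3 to 5 for Ago2-/- inputs and 7 to 8 for labelled Upf1 knockout inputs, and stayed at 1 for labelled Upf1 knockout recovery. Depth was lowest for Cnot6l, with as few as 119 counts in a library.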
